A study of Homo sapiens with 8 samples.

Results

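The genes of sterol and fatty acid synthesis were followed in prostate cancer cells with and without activated Notch1. The group was a list of 33 genes, chosen with earlier results of these data known. It held regulators, enzymes of the mevalonate and cholesterol steps, and the lysosomal cholesterol exporter NPC1. Enzymes that build, lengthen, desaturate or activate fatty acids made up the rest. A gene was measured if the platform annotation gave a probe set its symbol and no other, and where several did, the one brightest on average across the 8 arrays was used. By this rule 29 of the 33 genes were measured, of 8226 genes on the array, while FDFT1, CYP51A1, FADS1 and ACSL3 had no such probe set. The sterol branch held 16 measured genes and the fatty acid branch 9, and the other 4 were the regulators SREBF1, SREBF2 and INSIG1 and the transporter NPC1.

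Cells of 4 groups were compared on Affymetrix U95Av2 arrays, with 2 arrays per group: LNCaP with activated Notch1, LNCaP with green fluorescent protein (GFP), PC3 with activated Notch1 and PC3 with GFP. LNCaP is an androgen-responsive prostate cancer line that was derived from a metastatic lymph node, and PC3 is a prostate cancer line from bone that grows without androgen. Activated Notch1 is the part of the receptor that signals with no ligand, and GFP is the control for the delivery of a transgene. The labels name neither the vector used for these arrays nor the time after delivery, and the methods describe a pair of chips for each sample, so p-values measure the spread between arrays, which may be technical. Each value is a log2 expression level, so that a difference of 1 is a doubling, and levels of different genes were not set against each other.

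Cholesterol is built from acetyl-CoA through mevalonate, farnesyl diphosphate and squalene, and fatty acids are built from the same acetyl-CoA through malonyl-CoA. Both routes are switched on by the sterol regulatory element binding proteins (SREBPs), which stay in the endoplasmic reticulum while sterols are plentiful and travel to the nucleus when sterols run short. Prostate cancer cells are known for active lipid synthesis, which androgens raise in LNCaP cells.

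The treatment and the line labels were checked first. HES1, a direct Notch target, was at 11.22 and 11.23 in LNCaP Notch1 arrays against 8.41 and 8.47 in LNCaP GFP arrays, and at 10.51 and 10.61 in PC3 Notch1 arrays against 7.92 and 8.08 in PC3 GFP arrays. NOTCH1 was not analysed here. In the GFP arrays the LNCaP markers KLK3, KLK2 and TMPRSS2 were all higher in LNCaP, while FOLH1 had no probe set with a single symbol. Of the KLK3 probe sets not used, 1 gave 0.09 between the lines (limma, adjusted p = 0.634) and the rest 0.79 to 2.56. CD44, VIM, PLAU, CAV1 and S100A2 were all lower in LNCaP than in PC3. Arrays of a group correlated at 0.9946 to 0.9975. Array medians were 6.28 to 6.36 in LNCaP and 5.95 to 6.01 in PC3, and no source says whether both lines were normalized together.

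In LNCaP cells with activated Notch1 the genes of both branches were lower or did not pass the test, and no member was higher. At an adjusted p under 0.05 (limma, Benjamini-Hochberg over all probe sets), 15 of the 29 members were lower and 0 were higher, and 0 were higher at an unadjusted p under 0.05 as well. Over all 8226 genes 10.2% were called lower and 8.47% higher in the same comparison. The median change was -0.42 over the 29 members against 0.04 over all genes. In 20 members both Notch1 arrays lay below both GFP arrays, in 1 they lay above, and in 8 the groups overlapped, while over all genes 25.6% lay fully below and 33.4% fully above. A bulk array cannot tell fewer cells making a transcript from less transcript per cell.

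**Figure D1:**
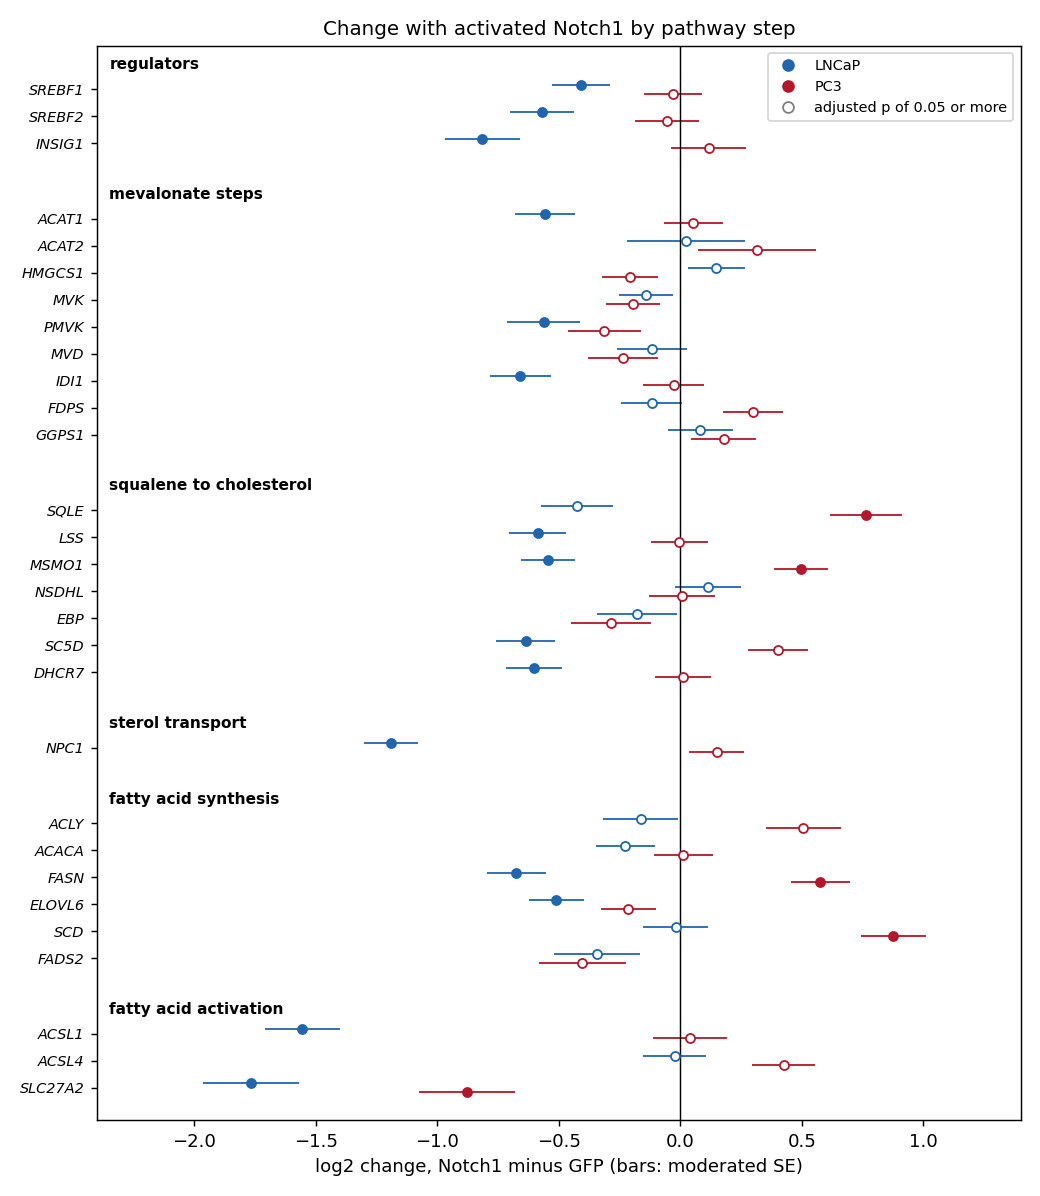
Log2 change with activated Notch1 against GFP for the 29 measured genes, ordered by pathway step, with LNCaP in blue above PC3 in red, bars for the moderated standard error (2 arrays per group) and filled points for an adjusted p under 0.05. All 15 filled LNCaP points lie left of 0, and 4 of the 5 filled PC3 points lie right of it.

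All 3 regulators were called lower in LNCaP cells, but none of these calls held under every alternative. SREBF2, which encodes the SREBP that mainly drives cholesterol genes, was at 9.51 and 9.31 in LNCaP Notch1 arrays against 10.04 and 9.92 in LNCaP GFP arrays, a change of -0.57 ± 0.13 (SE, n = 2 per group, adjusted p = 0.0128). SREBF1, whose SREBP mainly drives fatty acid genes, was at 9.75 and 9.59 in LNCaP Notch1 arrays and 10.15 and 10.004 in LNCaP GFP arrays (-0.41 ± 0.12, adjusted p = 0.0394). INSIG1 encodes the membrane protein that holds SREBPs in the endoplasmic reticulum and is itself an SREBP target. It was at 8.23 and 8.24 in LNCaP Notch1 arrays against 8.83 and 9.28 in LNCaP GFP arrays (-0.81 ± 0.15, adjusted p = 0.00428). For each of the 3 regulators both Notch1 arrays lay below both GFP arrays.

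The 250 bases before the start of 3 genes are shown because they differ in what the arrays found: SREBF2 encodes the regulator and was called in LNCaP, MSMO1 was called in both lines with opposite signs, and SCD was called in PC3. The windows come from RefSeq (GRCh38.p14), run 5′ to 3′ on the + strand, and lie at chr22:41832855-41833104 for SREBF2, chr4:165327419-165327668 for MSMO1 and chr10:100346983-100347232 for SCD.
SREBF2: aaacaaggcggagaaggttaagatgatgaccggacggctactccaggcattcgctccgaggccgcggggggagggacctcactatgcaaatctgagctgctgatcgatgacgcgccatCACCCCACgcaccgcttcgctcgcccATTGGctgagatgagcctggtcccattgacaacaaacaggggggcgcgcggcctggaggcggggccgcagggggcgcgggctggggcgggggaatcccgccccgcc
MSMO1: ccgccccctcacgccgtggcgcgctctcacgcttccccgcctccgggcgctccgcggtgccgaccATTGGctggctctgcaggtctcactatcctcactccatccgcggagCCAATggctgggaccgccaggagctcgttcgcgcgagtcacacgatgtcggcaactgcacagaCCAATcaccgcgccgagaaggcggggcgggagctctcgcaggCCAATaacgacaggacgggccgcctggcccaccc
SCD: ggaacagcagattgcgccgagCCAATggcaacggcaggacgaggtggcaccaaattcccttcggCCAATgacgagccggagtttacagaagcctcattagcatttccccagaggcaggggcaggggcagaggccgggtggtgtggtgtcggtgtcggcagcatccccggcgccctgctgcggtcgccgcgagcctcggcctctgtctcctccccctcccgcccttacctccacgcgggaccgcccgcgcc
Capitals mark CACCCCAC, the core of a sterol regulatory element, and CCAAT, the box bound by the SREBP partner NF-Y, on either strand (GTGGGGTG and ATTGG on the other strand). The 2 motifs did not overlap in the windows shown. The set of windows used here covered 26 members, and FASN and SQLE were not among them. CACCCCAC occurred once before SREBF2 and in 2 of the 42 windows of these 26 members (4.76%), against 2.43% of 35116 windows of the same length. CCAAT occurred 4 times before MSMO1, 2 times before SCD and once before SREBF2, and in 23 of the 42 member windows (54.8%) against 32% of all windows. A match describes these letters and is not a measured binding site.

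Of the 9 mevalonate pathway genes 3 were lower in LNCaP cells with Notch1. IDI1, the isomerase that makes the activated isoprene unit, was at 10.94 and 10.73 in LNCaP Notch1 arrays against 11.46 and 11.52 in LNCaP GFP arrays (-0.66 ± 0.12, adjusted p = 0.00441). PMVK, phosphomevalonate kinase, changed by -0.56 ± 0.15 (adjusted p = 0.0262), with 7.98 and 7.67 in LNCaP Notch1 arrays and 8.46 and 8.32 in LNCaP GFP arrays. ACAT1, a mitochondrial thiolase that also serves ketone body and isoleucine breakdown, changed by -0.56 ± 0.12 (adjusted p = 0.00999) at levels of 2.84 and 2.89 with Notch1 and 3.43 and 3.42 with GFP, all below the log2 5 that served as a floor in 1 alternative. The other 6 did not pass the test. Their changes ran from -0.14 for the mevalonate kinase MVK to 0.15 for HMGCS1, the synthase that opens the pathway, with -0.12 for the decarboxylase MVD, -0.12 for farnesyl diphosphate synthase FDPS, 0.02 for the cytosolic thiolase ACAT2 and 0.08 for GGPS1, which makes geranylgeranyl diphosphate for protein prenylation.

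From squalene to cholesterol 4 of 7 genes were lower in LNCaP cells with Notch1, each with both Notch1 arrays below both GFP arrays. LSS, which closes the sterol ring, was at 9.49 and 9.63 in LNCaP Notch1 arrays against 10.21 and 10.08 in LNCaP GFP arrays (-0.59 ± 0.12, adjusted p = 0.00594). MSMO1, the oxidase that removes methyl groups from the ring, was at 9.51 and 9.50 in LNCaP Notch1 arrays against 10.08 and 10.01 in LNCaP GFP arrays (-0.54 ± 0.11, adjusted p = 0.00624). SC5D and DHCR7 catalyse late steps, and DHCR7 makes cholesterol itself. SC5D was at 9.28 and 9.13 in LNCaP Notch1 arrays and 9.83 and 9.86 in LNCaP GFP arrays (-0.64 ± 0.12, adjusted p = 0.00466), and DHCR7 was at 9.79 and 9.79 in LNCaP Notch1 arrays and 10.35 and 10.43 in LNCaP GFP arrays (-0.60 ± 0.11, adjusted p = 0.00459). SQLE, the epoxidase that controls flow past squalene, was at 8.48 and 8.48 in LNCaP Notch1 arrays and 8.71 and 9.10 in LNCaP GFP arrays. Its change of -0.42 ± 0.15 did not pass the test (adjusted p = 0.0806), although it did with the replicate number as a block (adjusted p = 0.0315). NSDHL and EBP, a dehydrogenase and an isomerase of the same route, changed by 0.11 and -0.18 without passing the test.

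NPC1, which moves cholesterol out of lysosomes, was at 6.97 and 6.99 in LNCaP Notch1 arrays against 8.16 and 8.18 in LNCaP GFP arrays, to 0.438 of the GFP level (-1.19 ± 0.11, adjusted p = 4.27e-05). A second NPC1 probe set was at 6.16 and 5.79 in LNCaP Notch1 arrays and 7.62 and 7.69 in LNCaP GFP arrays (-1.68 ± 0.14, adjusted p = 1.64e-05). Both probe sets of NPC1 thus changed in the same direction, by more than the distance between arrays of a group.

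In the fatty acid branch 4 of 9 genes were lower in LNCaP cells with Notch1, and the furthest falls were in fatty acid activation, the coupling of fatty acids to coenzyme A. SLC27A2, an acyl-CoA synthetase of long and very long chains, was at 5.78 and 5.61 in LNCaP Notch1 arrays against 7.16 and 7.76 in LNCaP GFP arrays, to 0.294 of the GFP level (-1.77 ± 0.20, adjusted p = 0.000145). ACSL1, the acyl-CoA synthetase of long chains, was at 7.01 and 7.11 in LNCaP Notch1 arrays against 8.48 and 8.75 in LNCaP GFP arrays, to 0.340 of the GFP level (-1.56 ± 0.15, adjusted p = 5.82e-05). FASN, the synthase that makes palmitate, was at 9.44 and 9.23 in LNCaP Notch1 arrays and 10.06 and 9.97 in LNCaP GFP arrays (-0.68 ± 0.12, adjusted p = 0.00311). ELOVL6, which lengthens palmitate, was the fourth (-0.51 ± 0.11, adjusted p = 0.0108), and a dimmer ELOVL6 probe set gave 0.16 ± 0.16 (adjusted p = 0.599). SCD, the desaturase that makes oleate, was at 7.003 and 6.92 in LNCaP Notch1 arrays and 7.001 and 6.96 in LNCaP GFP arrays (-0.02 ± 0.13, adjusted p = 0.952). The remaining 4 gave -0.34 for the desaturase FADS2, -0.23 for ACACA, which makes malonyl-CoA, -0.16 for ACLY, which makes acetyl-CoA from citrate, and -0.02 for the synthetase ACSL4, and none passed the test. The ACSL4 probe set read 1.31 to 2.34 over all 8 arrays.

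The median LNCaP change was -0.30 in the sterol branch and -0.34 in the fatty acid branch, with 7 of 16 and 4 of 9 genes lower. No test was made between these branches, and the fatty acid median was -0.16 without LNCaP Notch1 array 2, -0.55 without LNCaP Notch1 array 1 and -0.23 with the probe sets of each gene averaged. The sterol median was -0.18 without probe sets under the 25th percentile of level and -0.16 with values under log2 5 raised to log2 5. Beside these falls, 3 of 3 measured LNCaP markers also fell with Notch1. KLK3 (prostate specific antigen) changed by -0.75, KLK2 by -1.51 and TMPRSS2 by -0.82, and the mean of the 3 markers was 8.24 to 8.41 in LNCaP Notch1 arrays against 9.29 to 9.41 in LNCaP GFP arrays. All 3 are known androgen targets, and their part in the falls of the lipid genes was not tested. The KLK3 call, from its brightest probe set, was lost with values under log2 5 raised (adjusted p = 0.06). Other KLK3 probe sets gave -0.70, -0.94 and -0.99, all called, and 0.05 (adjusted p = 0.879) and -0.40 (0.0984), not called. Among 5 markers of adipocytes and liver, which also make lipid, ALB changed by 2.63 in LNCaP and the other 4 did not pass the test.

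The LNCaP calls of IDI1, SC5D, DHCR7, NPC1, FASN, ACSL1 and SLC27A2 held under every alternative run, and that of INSIG1 under all but the raising of values under log2 5 to log2 5 (adjusted p = 0.0576). Without LNCaP GFP array 1 there were 9 lower calls, with adjusted p of 0.23 for SREBF1, 0.0833 for SREBF2, 0.051 for ACAT1, 0.134 for PMVK, 0.0536 for LSS, 0.0516 for MSMO1 and 0.0737 for ELOVL6, and 0.0308 for SQLE. Without LNCaP GFP array 2 the adjusted p was 0.0828 for SREBF1, 0.0553 for ACAT1, 0.0566 for PMVK and 0.0508 for ELOVL6. Without LNCaP Notch1 array 1 it was 0.0665 for SREBF1, 0.0658 for ACAT1 and 0.053 for LSS, and without LNCaP Notch1 array 2 it was 0.211 for SREBF1, 0.104 for SREBF2, 0.198 for PMVK and 0.0708 for ELOVL6. SREBF1 also missed the threshold without either PC3 Notch1 array (adjusted p = 0.0659), after quantile normalization (0.058), in a fit of the LNCaP arrays alone (0.0594) and with values under log2 5 raised (0.0509), and SREBF2 missed it with the raised values (0.0554).

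**Figure D2:**
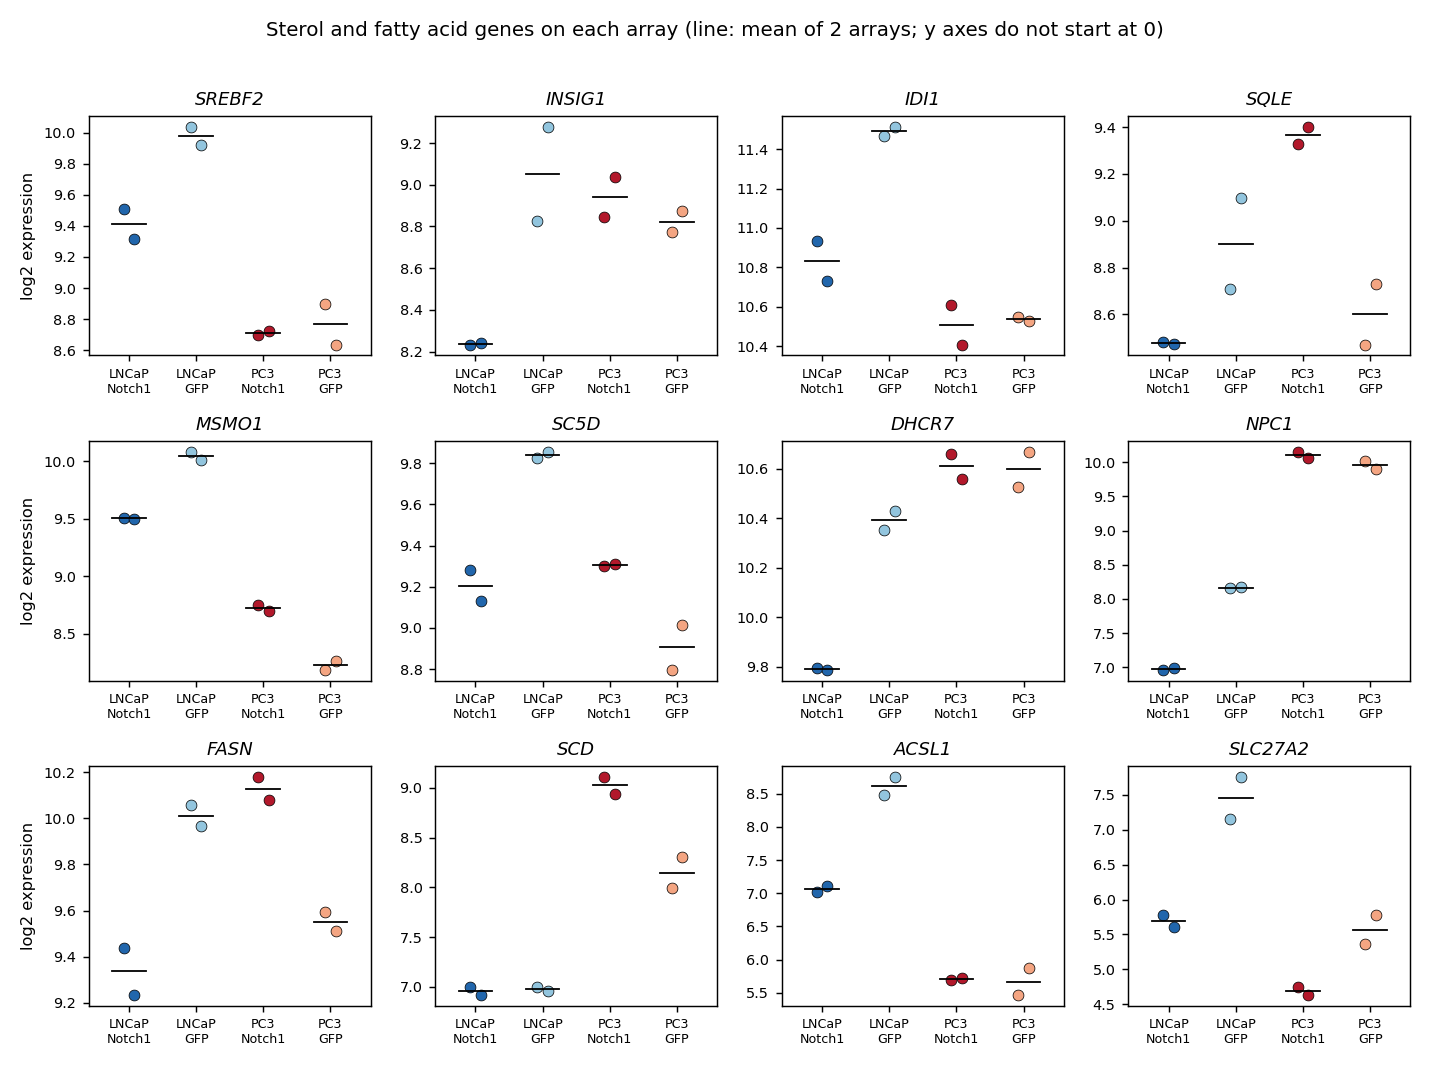
Log2 expression of 12 sterol and fatty acid genes on each of the 8 arrays, with 2 points per group and a line at their mean; the y axes differ between genes and do not start at 0. Of the genes shown, SLC27A2 (-1.77), ACSL1 (-1.56) and NPC1 (-1.19) have the widest gaps between LNCaP Notch1 and LNCaP GFP means, and SCD (0.88) and SQLE (0.76) lie furthest above their GFP means in PC3 Notch1 arrays.

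In PC3 cells with activated Notch1 a few members rose and 1 fell. At an adjusted p under 0.05, 4 of 29 members were higher and 1 was lower, against 4.36% of all genes higher and 2.21% lower. After quantile normalization the counts were 2 higher and 0 lower. The median change was 0.01 over the members and -0.07 over all genes. Both Notch1 arrays lay above both GFP arrays in 9 members and below them in 8, and the groups overlapped in 12, while over all genes 21.9% lay fully above and 35.2% fully below.

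The genes that rose in PC3 were SCD and FASN of the fatty acid branch and SQLE and MSMO1 of the sterol branch. SCD was at 9.11 and 8.94 in PC3 Notch1 arrays against 7.99 and 8.31 in PC3 GFP arrays, 1.84 times the GFP level (0.88 ± 0.13, adjusted p = 0.00364). SQLE was at 9.33 and 9.40 in PC3 Notch1 arrays against 8.47 and 8.73 in PC3 GFP arrays, 1.70 times the GFP level (0.76 ± 0.15, adjusted p = 0.0142). FASN was at 10.18 and 10.08 in PC3 Notch1 arrays and 9.59 and 9.51 in PC3 GFP arrays (0.58 ± 0.12, adjusted p = 0.021). For these and for MSMO1 the arrays of the groups did not overlap. MSMO1 was at 8.75 and 8.70 in PC3 Notch1 arrays and 8.19 and 8.27 in PC3 GFP arrays (0.50 ± 0.11, adjusted p = 0.0267). Its dim second probe set gave 1.34 ± 0.19 (adjusted p = 0.00234). That probe set was at 3.55 and 3.73 in PC3 Notch1 arrays and 2.10 and 2.50 in PC3 GFP arrays, below log2 5, where signal limits the measurement. The gene that fell was SLC27A2, at 4.74 and 4.63 in PC3 Notch1 arrays against 5.36 and 5.77 in PC3 GFP arrays (-0.88 ± 0.20, adjusted p = 0.0284). Its Notch1 levels lie under log2 5 as well. The SLC27A2 call was lost with values under log2 5 raised to log2 5 (adjusted p = 0.363) and after quantile normalization (0.053).

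SC5D and ACLY stood just short of the threshold in PC3. SC5D was at 9.30 and 9.31 in PC3 Notch1 arrays and 8.80 and 9.01 in PC3 GFP arrays (0.40 ± 0.12, adjusted p = 0.083). ACLY was at 9.62 and 9.83 in PC3 Notch1 arrays and 8.997 and 9.44 in PC3 GFP arrays (0.51 ± 0.15, adjusted p = 0.0832). With the replicate number as a block ACLY passed (adjusted p = 0.0296), as did ACSL4 (0.43, adjusted p = 0.0246) and FADS2 (-0.40, adjusted p = 0.0495). The regulators did not pass, with -0.03 for SREBF1, -0.06 for SREBF2 and 0.12 for INSIG1, and neither did NPC1, with 0.15. None of the 9 mevalonate genes passed, and their PC3 changes ran from -0.31 for PMVK to 0.32 for ACAT2, which varied between the PC3 GFP arrays (7.36 and 8.22). The other members without a PC3 call were LSS, NSDHL, EBP, DHCR7, ACACA, ELOVL6 and ACSL1, with changes from -0.29 for EBP to 0.04 for ACSL1.

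None of the 5 PC3 calls held under every alternative. Without PC3 Notch1 array 1 there were 0 higher and 0 lower calls, with adjusted p of 0.0563 for SCD, 0.0874 for SQLE, 0.163 for FASN, 0.174 for MSMO1 and 0.128 for SLC27A2. Without PC3 Notch1 array 2 the adjusted p was 0.118 for SQLE, 0.0973 for FASN, 0.129 for MSMO1 and 0.164 for SLC27A2, and without PC3 GFP array 1 it was 0.0906 for SQLE, 0.0583 for FASN and 0.13 for MSMO1. Without PC3 GFP array 2 there were 8 higher calls, ACAT2, SC5D, ACLY and ACSL4 added, and SLC27A2 gave 0.0614, as it gave 0.0587 without either LNCaP Notch1 array. The sterol branch median was 0.01 and the fatty acid median 0.04, which became 0.24 without PC3 GFP array 2. Beside these changes 4 of 5 PC3 markers rose with Notch1, with 0.91 for CD44, and the mean of the 5 was 10.74 to 10.76 in PC3 Notch1 arrays against 9.94 to 10.11 in PC3 GFP arrays. Their part was not tested.

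The effects in the 2 lines were then set against each other in an interaction contrast, the LNCaP effect minus the PC3 effect. It was called negative for 12 of 29 members and positive for 0 (0 at an unadjusted p under 0.05), while 8.34% of all genes were called negative and 6.86% positive. The members' median difference was -0.51 and that of all genes 0.11. The 12 were INSIG1, ACAT1, IDI1, SQLE, LSS, MSMO1, SC5D, DHCR7, NPC1, FASN, SCD and ACSL1, so 7 of the 16 sterol genes and 3 of the 9 fatty acid genes were among them.

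MSMO1 and FASN were the 2 members called lower in LNCaP and higher in PC3, although after quantile normalization neither PC3 change passed the test (adjusted p = 0.0651 for MSMO1 and 0.0549 for FASN). FASN changed by -0.68 in LNCaP and 0.58 in PC3, a difference of -1.25 ± 0.17 (adjusted p = 0.00113). MSMO1 changed by -0.54 in LNCaP and 0.50 in PC3, a difference of -1.04 ± 0.16 (adjusted p = 0.0018). Its second probe set, below log2 5 on all PC3 arrays, gave -2.03 ± 0.27 (adjusted p = 0.000938). In all, 14 members had a negative LNCaP value and a positive PC3 value, called or not. Some of these values lay near 0, such as 0.01 in PC3 for DHCR7 and -0.02 in LNCaP for SCD. The share of all genes with this pair of signs was not counted. Taken singly, 25 of 29 members and 3473 of 8226 genes were negative in LNCaP. In PC3, 17 of 29 members and 3302 of 8226 genes were positive. SQLE (-1.19 ± 0.21, adjusted p = 0.00452) and SC5D (-1.04 ± 0.17, adjusted p = 0.00313) also moved apart, SQLE with its call in PC3 and SC5D with its call in LNCaP.

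For ACSL1 and NPC1 the difference came with a fall in LNCaP and PC3 values near 0. ACSL1 was at 5.70 and 5.72 in PC3 Notch1 arrays and 5.47 and 5.87 in PC3 GFP arrays, and the difference between lines was -1.59 ± 0.22 (adjusted p = 0.00105). These ACSL1 levels in PC3 lie close to log2 5, under which signal limits the measurement. The room to measure a fall there was therefore smaller than in LNCaP. NPC1 was at 10.15 and 10.07 in PC3 Notch1 arrays and 10.02 and 9.90 in PC3 GFP arrays, and the difference was -1.34 ± 0.16 (adjusted p = 0.000427), with -1.85 for the second probe set. INSIG1 gave -0.93 ± 0.22 (adjusted p = 0.0182), and IDI1, LSS, DHCR7 and ACAT1 gave -0.63, -0.58, -0.61 and -0.61 (adjusted p between 0.0321 and 0.0422). SCD was the reverse case, with its change in PC3 and a LNCaP value of -0.02 (difference -0.90 ± 0.19, adjusted p = 0.0112).

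SLC27A2 was called lower in both lines, in PC3 at levels near log2 5 and not under every alternative. Its difference of -0.89 ± 0.28 did not pass the test (adjusted p = 0.0588), although it did with the replicate block (adjusted p = 0.0373). The block also brought in SREBF2 (-0.51, adjusted p = 0.0405), ACLY (-0.67, adjusted p = 0.0244) and ACSL4 (-0.45, adjusted p = 0.0445), for 16 negative calls. The differences of MSMO1, SC5D, NPC1, FASN and ACSL1 held under every alternative run, and that of SQLE under all but the raising of values under log2 5 (adjusted p = 0.0542). The raised values also ended the calls of INSIG1 (0.102), IDI1 (0.0755), SCD (0.058) and ACAT1. Quantile normalization ended those of IDI1 (0.0654), LSS (0.126) and DHCR7 (0.0665). LSS was also lost with its probe sets averaged (0.17) and ACAT1 with a variance trend (0.0559). The count of negative calls was 6 without LNCaP Notch1 array 2 and 7 without LNCaP GFP array 2 or either PC3 Notch1 array. INSIG1 missed the threshold without PC3 Notch1 array 2 (adjusted p = 0.0813), LNCaP GFP array 2 (0.0614) or LNCaP Notch1 array 1 (0.0639) or 2 (0.0629), and SCD missed it without PC3 Notch1 array 1 (adjusted p = 0.0576) or LNCaP Notch1 array 2 (0.0501). LSS missed it without any array (adjusted p of 0.0582 to 0.137), ACAT1 (0.0851 to 0.142) and DHCR7 (0.0614 to 0.119) without any array but PC3 GFP array 2, and IDI1 (0.0593 to 0.148) without any array but PC3 GFP array 2 and LNCaP Notch1 array 1. Without PC3 GFP array 2 ACLY (adjusted p = 0.0098) and SLC27A2 (0.0198) passed, and SLC27A2 passed without LNCaP GFP array 1 too (0.00886).

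**Figure D3:**
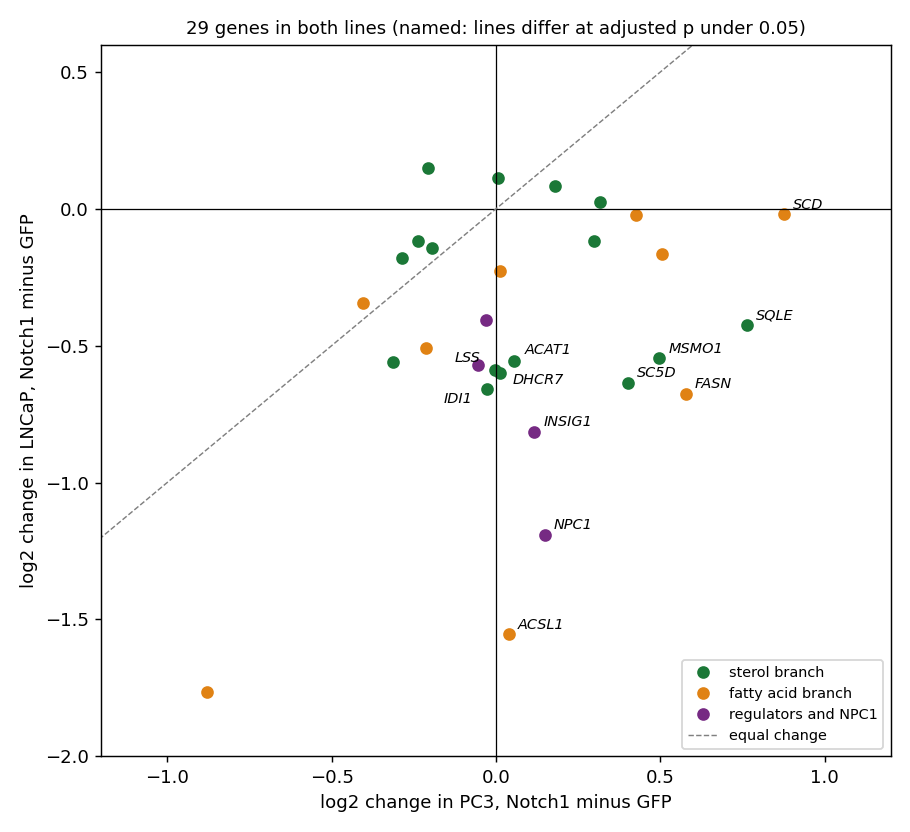
Log2 change with Notch1 against GFP in PC3 (x axis) and LNCaP (y axis) for the 29 genes, colored by branch, with a dashed line where both changes are equal and names for the 12 genes whose changes differed between lines at an adjusted p under 0.05. MSMO1, FASN, SQLE and SC5D lie in the lower right, and ACSL1 and NPC1 lie low near a PC3 change of 0.

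The starting levels of the members were compared between the lines in the GFP arrays. In GFP arrays 14 of 29 members were higher and 5 lower in LNCaP than in PC3, shares of 48.3% and 17.2% that lie near the 39.8% and 19.8% of all genes, and the split became 10 and 11 after each array was centred on its median and 12 and 7 after quantile normalization. The median over all probe sets was 0.22 in this contrast as deposited and -0.06 after centring. ACSL1 stood furthest above, at 8.48 and 8.75 in LNCaP GFP arrays against 5.47 and 5.87 in PC3 GFP arrays, 7.72 times the PC3 level (2.95 ± 0.15). GGPS1 (1.96), SLC27A2 (1.90), MSMO1 (1.82), SREBF2 (1.21), ELOVL6 (1.12), IDI1 (0.95), SC5D (0.94) and LSS (0.67) were higher in LNCaP with and without centring, while NPC1 (-1.79) and SCD (-1.17) were lower in LNCaP. Centring ended the calls of HMGCS1, ACLY, ACACA and FASN, and quantile normalization ended those of HMGCS1 and ACAT1.

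Genes of the same pathways outside the list were described beside the members. Of 16 other measured sterol genes, 1 was higher (6.25%) and 2 lower (12.5%) in LNCaP with Notch1, with a median change of 0.03. These shares lie near the 8.47% and 10.2% of all genes. TM7SF2, a sterol reductase of the same route, changed by -1.53 in LNCaP (adjusted p = 2.26e-05) and -0.54 in PC3 (adjusted p = 0.0382). INSIG2, the second INSIG protein, changed by -0.46 in LNCaP (adjusted p = 0.0315), and SCARB1, which takes up cholesterol from lipoproteins, changed by 0.86 (adjusted p = 0.00119). Of 14 other lipid synthesis genes, 4 were lower (28.6%) and 0 higher in LNCaP (median -0.17). LPIN1, a phosphatidate phosphatase on the way to triglyceride, was at 6.22 and 6.10 in LNCaP Notch1 arrays against 8.05 and 8.23 in LNCaP GFP arrays (-1.98, adjusted p = 3.95e-05). ME1, which supplies NADPH for fatty acid synthesis, changed by -1.10 in LNCaP. ELOVL5, an elongase of unsaturated chains, changed by -0.52 in LNCaP and 0.59 in PC3. A second ELOVL5 probe set, at 6.06 to 6.85 over all 8 arrays, gave -0.17 in LNCaP (adjusted p = 0.351) and -0.06 in PC3 (adjusted p = 0.753). With the probe sets of ELOVL5 averaged, its PC3 call was lost (0.26, adjusted p = 0.139). In PC3 the sterol genes outside the list gave 1 higher (OSBP, an oxysterol binding protein, 0.51) and 1 lower call, 6.25% each. The lipid synthesis genes gave 1 higher (7.14%) and 0 lower, against 4.36% of all genes higher and 2.21% lower. OSBP was at 4.87 and 4.80 in PC3 Notch1 arrays and 4.36 and 4.29 in PC3 GFP arrays. Its change was 0 with values under log2 5 raised to log2 5, and TM7SF2 then missed the threshold (adjusted p = 0.119). In a fit of the PC3 arrays alone TM7SF2 (0.0629), ELOVL5 (0.0566) and OSBP (0.0727) missed it. The PC3 calls of TM7SF2 (adjusted p of 0.171 to 0.184) and ELOVL5 (0.118 to 0.12) were lost without PC3 GFP array 1 or either PC3 Notch1 array, and that of OSBP (0.0544 to 0.219) without any PC3 array or either LNCaP Notch1 array. In LNCaP the call of INSIG2 was lost without either PC3 Notch1 array, either LNCaP GFP array or LNCaP Notch1 array 2 (0.0558 to 0.213), and that of ELOVL5 without LNCaP GFP array 2 or either LNCaP Notch1 array (0.051 to 0.0886).

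**Figure D4:**
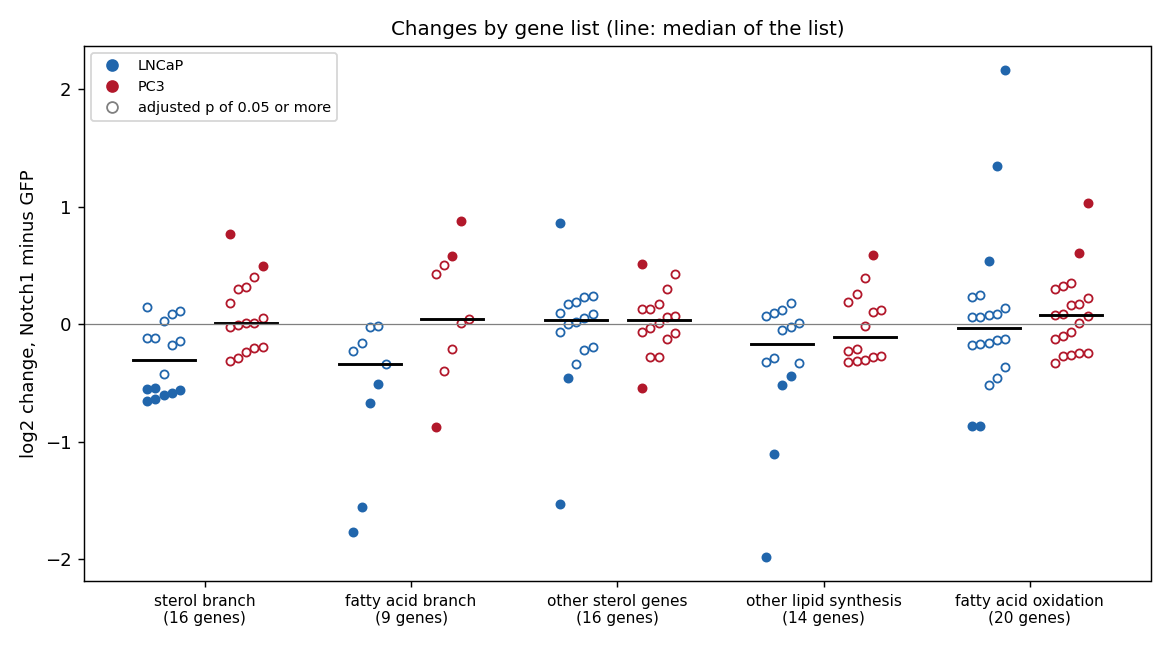
Log2 change with Notch1 against GFP for each gene of the sterol branch, the fatty acid branch and 3 lists outside them, with LNCaP in blue left of PC3 in red, a black line at each list's median and filled points for an adjusted p under 0.05. The LNCaP medians of the sterol branch (-0.30) and the fatty acid branch (-0.34) lie below those of the other sterol genes (0.03), the other lipid synthesis genes (-0.17) and the fatty acid oxidation genes (-0.04).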

How the data were processed

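Gene expression was measured on 8 Affymetrix U95Av2 arrays, 2 for each of 4 groups given by the sample labels. Per the methods, the authors summarised the raw array files with RMA and used limma (versions not given in the sources used here), and they deposited 1 log2 value per probe set and array. These log2 values were analysed as deposited. Of 12625 probe sets 67 controls were left out and 12558 tested. The platform annotation gave 10943 of them 1 symbol (8226 genes), 545 several and 1070 none. NOTCH1 and HEY1 were not analysed here.

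One linear model with 4 group means was fitted with limma 3.58.1 in R 4.3.3 (4 residual and 6.37 prior degrees of freedom). Tests are two-sided and moderated, p-values were adjusted by Benjamini-Hochberg over all tested probe sets, and a call is an adjusted p under 0.05. Counts over all genes use 1 probe set per gene. The procedure was tested on simulated data. The members and the lists were chosen with earlier results of these data known. All measured members were named whatever their test, and of every other list up to 3 called genes per line with the largest change, with HES1, KLK3, CD44 and VIM.

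Replicate numbers 1 and 2 occur in all groups, and deviations of arrays with the same number from their group means correlated (0.124 to 0.545 over the 6 pairs of groups). No source says what a number marks, so the fit without it was kept and values with the number as a block stand beside the results whose calls it altered. The alternatives were median centring, quantile normalization, values under log2 5 raised to log2 5, dropping probe sets under the 25th percentile, fits within a line, averaging the probe sets of a gene, a variance trend, the replicate block and leaving out each array. With 2 arrays per group, leaving 1 out leaves a lone array that is assumed to vary like the other groups. The number of arrays limits the precision.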

Additional observations from a re-analysis of the deposited data

Results flagged for a closer look

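The change with activated Notch1 differed between LNCaP and PC3 in the interaction contrast for 12 members, as given above. The differences, LNCaP effect minus PC3 effect on the log2 scale, were -0.93 for INSIG1, -0.61 for ACAT1, -0.63 for IDI1, -1.19 for SQLE, -0.58 for LSS, -1.04 for MSMO1, -1.04 for SC5D, -0.61 for DHCR7, -1.34 for NPC1, -1.25 for FASN, -0.90 for SCD and -1.59 for ACSL1. All 12 had the same sign.

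The same contrast passed the test for 10 named genes outside the members. LPIN1 gave -2.17, ETFA -1.17, ELOVL5 -1.11, TM7SF2 -0.99, CD44 -0.92, ME1 -0.82, OSBP -0.71 and INSIG2 -0.63, and SCARB1 (0.79) and ACAA2 (0.74) gave positive differences. Of these, LPIN1, ETFA, ELOVL5, TM7SF2, CD44 and ME1 passed under every alternative run, although a second ELOVL5 probe set gave -0.11 (adjusted p = 0.64). The dim ME1 probe sets gave -0.98 (adjusted p = 0.0986) and 0.05 (adjusted p = 0.861), neither passing the test. ACAA2 missed the threshold after median centring (adjusted p = 0.0703) and, with INSIG2, SCARB1 and OSBP, after values under log2 5 were raised to log2 5 (0.133, 0.0939, 0.069 and 0.478). ACAA2 was also lost without any array but PC3 GFP array 1 (0.056 to 0.151), INSIG2 without any but LNCaP Notch1 array 1 (0.0615 to 0.14), SCARB1 without either PC3 Notch1 array, LNCaP GFP array 2 or LNCaP Notch1 array 1 (0.0549 to 0.0745), and OSBP without either PC3 Notch1 array, LNCaP GFP array 1 or LNCaP Notch1 array 2 (0.0702 to 0.0935).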

How the results depend on the processing

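No called value changed sign under any alternative run. Some counts of calls moved. The 4 higher calls in PC3 became 2 after quantile normalization, 1 with values under log2 5 raised to log2 5, and 0 to 8 with an array left out. The 1 lower call in PC3 became 0 after quantile normalization, 0 with the raised values and 2 with the replicate block, and was 0 to 1 with an array left out. The 15 lower calls in LNCaP were 9 to 15 with an array left out and 10 to 16 otherwise, and no higher call appeared. The 12 negative differences between lines became 7 with the raised values and 6 to 13 with an array left out. The replicate block gave 16 differences, 16 lower calls in LNCaP and 6 higher calls in PC3, and it altered no member call beyond those given above. The 5 members lower in LNCaP GFP than in PC3 GFP became 11 after median centring, 2 with the raised values and 4 to 5 with an array left out. With all arrays kept, single members kept their side of the threshold in 219 of 230 comparisons in LNCaP (9 calls lost and 2 gained) and in 218 of 230 in PC3 (8 lost and 4 gained). In PC3 the sterol branch median was -0.0813 after quantile normalization and -0.04 to 0.08 with an array left out, against 0.01, and the fatty acid median was 0.0892 and -0.00339 to 0.24, against 0.04. In LNCaP the sterol median was -0.16 with the raised values. With the raised values the prior degrees of freedom were 0.386, and calls of genes above log2 5, such as INSIG1 in LNCaP, were lost as well. Averaging the probe sets of a gene ended the LNCaP calls of LSS and ELOVL6. The other 2 probe sets of these genes are dim, below log2 5, where signal limits the measurement.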

Other observations

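Fatty acid oxidation, the breakdown of fatty acids in mitochondria and peroxisomes, was described beside synthesis. Of 20 measured genes 3 were higher (15%) and 2 lower (10%) in LNCaP with Notch1, against 8.47% and 10.2% of all genes. In PC3 cells 2 were higher (10%) and 0 lower, against 4.36% and 2.21% of all genes. The median changes were -0.04 in LNCaP and 0.07 in PC3. ACADSB, an acyl-CoA dehydrogenase of short branched chains, was at 10.81 and 10.85 in LNCaP Notch1 arrays against 8.44 and 8.90 in LNCaP GFP arrays (2.16, adjusted p = 0.000298). In PC3 it was at 7.24 and 7.39 with Notch1 and 5.79 and 6.78 with GFP (1.03, adjusted p = 0.0483, and 0.53 without PC3 GFP array 1). ACAA2, the mitochondrial thiolase of the last oxidation step, changed by 1.34 in LNCaP (adjusted p = 0.000134) and 0.60 in PC3 (adjusted p = 0.0406). Both PC3 calls were lost without PC3 GFP array 1, either PC3 Notch1 array or either LNCaP Notch1 array (adjusted p of 0.0944 to 0.212 for ACADSB and 0.0659 to 0.226 for ACAA2). ETFA, which carries electrons from acyl-CoA dehydrogenases, changed by -0.87 in LNCaP (adjusted p = 0.00117). The genes called in this list moved in both directions in LNCaP, as did the called genes of the whole array.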
